A study of Bos taurus with 11 samples.

Results

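MiR-186 was followed across small RNA libraries of bovine mammary gland as 1 of the 796 miRNAs in the count table, of which 754 had a read in any library. It was taken by its name, bta-miR-186, which labels 1 row of the table, and no other miRNA had counts in a constant ratio to it. It had been proposed with the comparison of the breeds in these libraries already known, so its difference between the breeds is described here and not tested. The tests concern how other miRNAs moved with miR-186 among cows of the same breed, which that choice did not use. The 11 libraries came from mammary biopsies of 5 Holstein and 6 Montbéliarde cows, which are dairy breeds that differ in milk yield. There was 1 library per cow and no treatment. Per the study's methods, all cows were in mid-lactation, received the same diet and were sampled by biopsy of a rear udder gland, and a sixth Holstein cow was left out for mastitis. Ages were not among the labels used here.

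A miRNA is cut from a hairpin precursor and guides a silencing complex to messenger RNAs that pair with it, which lowers their translation or stability. MiR-186 is found in many tissues, and in tumour cells it has been studied for effects on proliferation and on epithelial-to-mesenchymal transition (EMT), the loss of epithelial character. The lactating mammary gland consists of alveoli lined by milk-secreting epithelium, with myoepithelial cells, fibroblasts, vessels and leukocytes around them. In a biopsy, a lower level of an epithelial miRNA may come from fewer epithelial cells or from less of that RNA per cell, which cannot be told apart. The RefSeq table of a later assembly (ARS-UCD2.0) than the one the authors used places the gene MIR186 within the span of ZRANB2, a gene for a zinc finger protein of RNA splicing. No other RefSeq miRNA gene lies in that span or within 10 kb of MIR186. The spans do not say whether the miRNA lies in an intron.

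The counts of all miRNAs summed to between 6087865 and 16808976 per library, called counted reads here, and 516 to 616 miRNAs had at least 1 read. In at least 7 pairs of miRNAs, such as miR-26a and miR-26c, the counts stood in a constant ratio, so the same reads may stand under both names. The sums, and the shares, ranks and depth taken from them, include both. The tissue label was checked with miRNAs typical of mammary epithelium, namely the miR-200 family, miR-205, the miR-183 cluster, miR-148a and miR-375. All 11 of these were present in every library, and their summed normalized read count was between 1340504 and 1655085 in Holstein. Among the Montbéliarde libraries the highest sum was 1508452, in CNLX13. The lowest sums of all were those of CNLX15, at 472440, and CNLX21, at 772050, and the same libraries had the highest sums of 10 stromal miRNAs, 5371901 and 4086587. Several results that rest on these libraries are given with and without them. Tags CNLX1 to CNLX9 belong to Holstein cows and CNLX13 to CNLX23 to Montbéliarde cows, so that any effect of the order of the tags cannot be told apart from breed.

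MiR-186 was abundant in every library. Its normalized read count, which is the raw count divided by the library's DESeq2 size factor, was 75352 in CNLX1, 70787 in CNLX3, 64059 in CNLX5, 69948 in CNLX7 and 76631 in CNLX9, the Holstein libraries. In the Montbéliarde libraries it was 53705 in CNLX13, 35154 in CNLX15, 49507 in CNLX17, 42620 in CNLX19, 31067 in CNLX21 and 40890 in CNLX23. The breeds did not overlap, and within Montbéliarde the lowest counts were found in CNLX21 and CNLX15. The means were 71355 ± 4984 (SD, n = 5) and 42157 ± 8499 (SD, n = 6). Of the 550 miRNAs with at least 10 counts over the 11 libraries, 1.64% were higher in all Holstein than in all Montbéliarde libraries, and 0.364% were higher in all Montbéliarde libraries. Because miR-186 was picked with this contrast in view, nothing is read from its place among them.

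**Figure D1:**
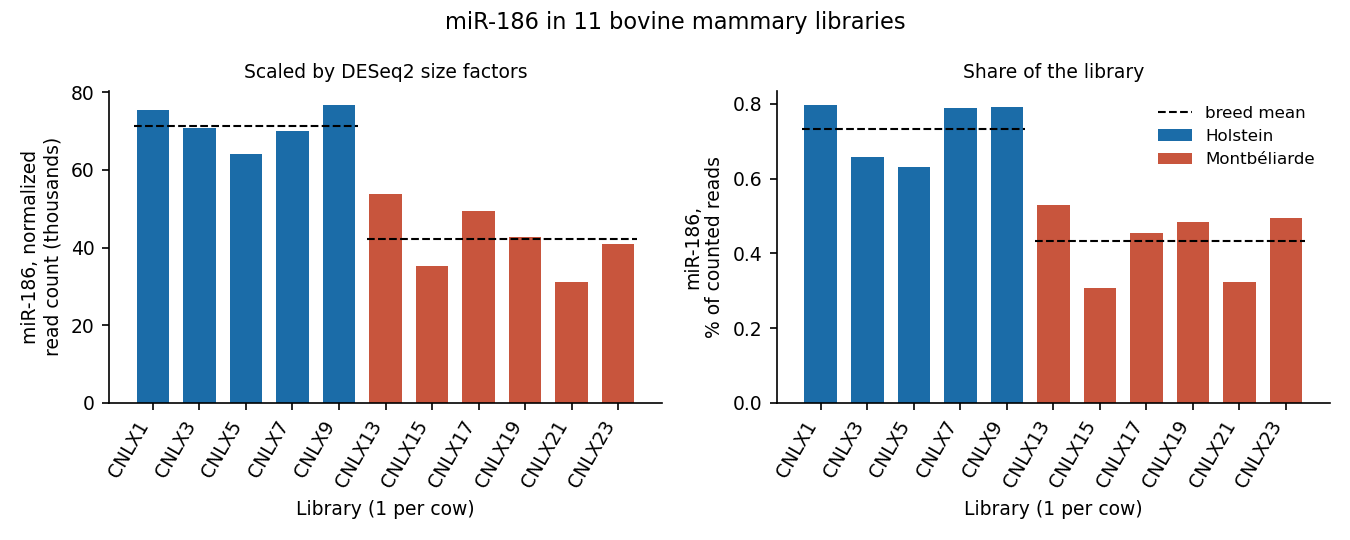
Normalized read count of miR-186 in units of 1000 reads (left) and its share of the counted reads in percent (right), for each of the 11 libraries, with 1 bar per cow. Dashed lines are the breed means. The Holstein bars lie between 64059 and 76631 normalized reads and the Montbéliarde bars between 31067 and 53705.

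The order of the breeds did not depend on the scaling. On the log2 scale of normalized counts, Montbéliarde minus Holstein was -0.78, which is 1.72-fold more in Holstein. It was -0.79 for CPM, the counts scaled to the counted reads of each library, and -0.79 for TMM-scaled counts. Relative to miR-26a, miR-92a and miR-191, the internal controls that the study chose for RT-qPCR, the difference was -0.76. In each of these scalings the lowest Holstein library stayed above the highest Montbéliarde library, by 0.21 to 0.28 on the log2 scale. Leaving out 1 library at a time, the difference was between -0.86 and -0.69. Without CNLX15 and CNLX21 together it was -0.61. With the log2 number of counted reads as a covariate it was -0.95.

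Between 28132 and 106164 raw reads of miR-186 were counted per library. It held 0.733% ± 0.0816 (SD, n = 5) of the counted reads in Holstein and 0.432% ± 0.0939 (SD, n = 6) in Montbéliarde. The counting error was small beside the differences between cows. In CNLX15, the library with the fewest reads of miR-186, the share was 0.308%, with a Wilson 95% confidence interval of 0.304 to 0.311% that covers counting error only. By reads, miR-186 ranked between 19th and 21st in the Holstein libraries. In Montbéliarde it ranked between 23rd and 25th in 4 libraries and 31st in CNLX15 and CNLX21.

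Averaged over the 11 libraries, miR-186 ranked 21st, after miR-30d and miR-26b and before miR-92a and miR-3596. The counts of miR-3596 were in a constant ratio to those of let-7b. Each count stands for a whole mature miRNA, so the shares are not scaled by length. In Holstein, miR-92a, of the cluster of miR-17, held 0.431% ± 0.0609 (SD, n = 5), and its highest share, 0.503%, was below the lowest share of miR-186, 0.632%. In Montbéliarde, miR-92a held 0.534% ± 0.111 (SD, n = 6), and its range, 0.425 to 0.713%, overlapped that of miR-186, 0.308 to 0.529%. The share of miR-26b was 0.798% ± 0.121 (SD, n = 5) in Holstein, where it overlapped miR-186. In Montbéliarde it was 0.689% ± 0.106 (SD, n = 6), from 0.554% upwards, so that miR-186 lay below miR-26b in each of these 6 libraries.

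Holstein cows differed little in miR-186. The coefficient of variation of its normalized count was 6.98% in Holstein, and 3 of the 51 miRNAs that averaged at least 10000 normalized reads had a lower one, against a median of 13.0%. In Montbéliarde it was 20.2%, 22 of the 51 were lower and the median was 23.5%. A choice made with the breed contrast in view favours a small spread within breed. Nothing is therefore read from the place of miR-186 among the 51. Of the sum of squares of miR-186 around the breed means on the log2 scale, 91.2% came from the Montbéliarde cows. What follows on miRNAs that moved with miR-186 within breed therefore rests mainly on Montbéliarde.

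Relative to the epithelial miRNAs, the difference of miR-186 between the breeds was smaller. Per 1000 normalized reads of the 11 epithelial miRNAs there were 47.4 reads of miR-186 in CNLX1, 43.2 in CNLX3, 47.8 in CNLX5, 47.5 in CNLX7 and 46.3 in CNLX9. In Montbéliarde there were 35.6 in CNLX13, 33.6 in CNLX17, 38.4 in CNLX19, 40.2 in CNLX21 and 34.4 in CNLX23. These 5 libraries were below every Holstein library, whereas CNLX15 had 74.4 and was above all of them. On this scale, chosen after seeing the data, Montbéliarde minus Holstein was -0.18 on log2, against -0.78 for normalized counts, and the breeds overlapped. Most of the epithelial sum was miR-148a, which made up 53.7% of it in CNLX15 and 65.8 to 74.7% in the other libraries. Per 1000 reads of the other 10 epithelial miRNAs there were 138 to 171 reads of miR-186 in Holstein and 104 to 161 in Montbéliarde. CNLX15, with 161, was then the highest of its breed but within the Holstein range, and the difference on log2 was -0.20. CNLX7 and CNLX17 had about the same sum of epithelial miRNAs, 1472135 and 1473112, and 69948 and 49507 normalized reads of miR-186. Their sums of stromal miRNAs were unlike, at 2342475 and 3918096, so nothing is read from this single pair. What part the makeup of the biopsies had in the difference between the breeds was not tested.

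**Figure D2:**
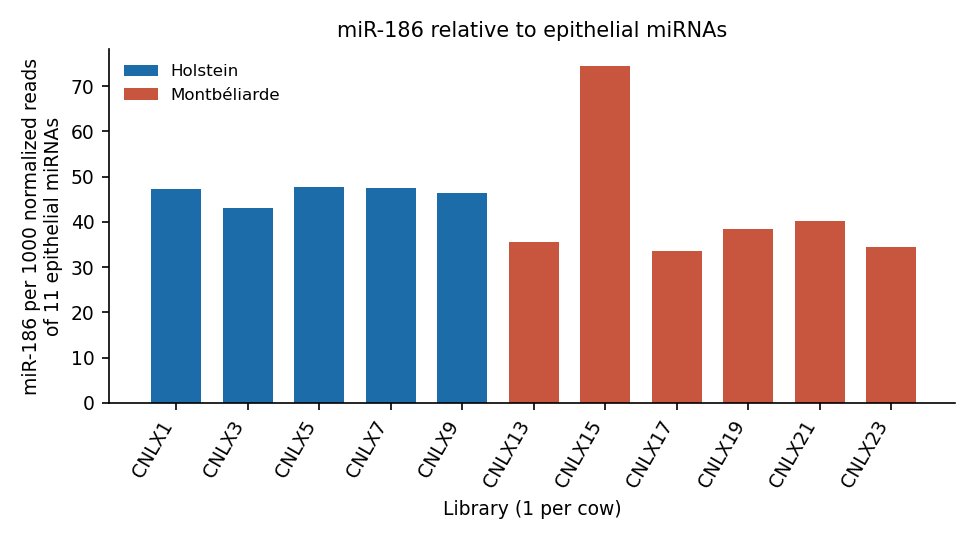
Reads of miR-186 per 1000 normalized reads of 11 epithelial miRNAs, with 1 bar per library. Holstein libraries lie between 43.2 and 47.8, and 5 Montbéliarde libraries between 33.6 and 40.2, while CNLX15 stands at 74.4.

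Within breed, 2 epithelial miRNAs, miR-200a and miR-141, were among those that rose with miR-186, and the stromal miR-145 was among those that fell. The slope of each miRNA on miR-186, which is its log2 change per log2 unit of miR-186 centred on the breed mean, was tested over 549 miRNAs by the quasi-likelihood test of edgeR with adjustment after Benjamini and Hochberg. At an adjusted p of at most 0.05, 6 miRNAs rose with miR-186 (1.09% of those tested) and 5 fell (0.911%). At a p of 0.05 or less before adjustment there were 129, 50 with a positive and 79 with a negative slope. The median slope of all tested miRNAs was -0.11. The Wald test of DESeq2 on the same design called 35 rising and 31 falling miRNAs, which included all 11. With limma-trend there were 6 and 5, of which 10 were shared. The 11 calls lay near the threshold, and several libraries decided them. Without CNLX1, CNLX5, CNLX7 or CNLX13 no miRNA passed. Without CNLX21 the numbers were 0 rising and 1 falling, without CNLX17 2 and 0, without CNLX9 1 and 3, and without CNLX3 3 and 3. They were 10 and 7 without CNLX15, 13 and 13 without CNLX23, and 0 and 0 without both CNLX15 and CNLX21. No sign of the 11 slopes changed in any of these fits or in any other alternative that was run.

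The miRNAs that rose included miR-200a and miR-141, of the miR-200 family, which keeps cells epithelial by repressing ZEB1 and ZEB2. The normalized count of miR-200a was 14598 in CNLX1, 13748 in CNLX3, 11416 in CNLX5, 13016 in CNLX7 and 18384 in CNLX9. The Montbéliarde counts were 20563 in CNLX13, 6739 in CNLX15, 16889 in CNLX17, 14865 in CNLX19, 8295 in CNLX21 and 16161 in CNLX23. CNLX9 and CNLX5, the highest and the lowest Holstein libraries in miR-186, were also the highest and the lowest in miR-200a, and CNLX15 and CNLX21 were the lowest in Montbéliarde. Its slope was 1.78 (SE 0.41, adjusted p = 0.0345 from edgeR). For miR-141, the most abundant miRNA among those called, counts were 255751 to 359025 in Holstein against 108911 to 353760 in Montbéliarde, and the slope was 1.68 (SE 0.41, adjusted p = 0.0464 from edgeR). The other members of the family, miR-200c, miR-429 and miR-200b, had slopes of 1.68, 1.24 and 1.16 that did not pass, with adjusted p-values of 0.0671, 0.0830 and 0.116 from edgeR.

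MiR-32, whose gene lies within TMEM245 and which shares its seed with the miR-25 and miR-92 family, rose as well. Its normalized count was 2258 in CNLX1, 1624 in CNLX3, 1591 in CNLX5, 1854 in CNLX7 and 2663 in CNLX9. The Montbéliarde counts were 2965 in CNLX13, 933 in CNLX15, 2056 in CNLX17, 1855 in CNLX19, 1181 in CNLX21 and 1781 in CNLX23. The breeds overlapped widely in miR-32, although not in miR-186. The slope was 1.74 (SE 0.40, adjusted p = 0.0345 from edgeR).

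The other 3 rising miRNAs had few reads. MiR-2411-5p, whose gene lies within UBAP2L, had between 9 and 52 raw reads per library and a slope of 2.75 (SE 0.57). MiR-12035, within MUC16, had 2 to 15 reads and a slope of 4.68 (SE 0.97), and miR-502b, within CLCN5, had 1 to 11 reads and a slope of 5.23 (SE 1.09). Their adjusted p was 0.0302 each from edgeR. At such counts the counting error adds to the spread between cows, and CNLX13, the Montbéliarde library highest in miR-186, held the highest normalized counts of all 3. Of 5 other tested miRNAs from within 10 kb of the gene of miR-502b, 4 had a positive slope and none had a p of 0.05 or less before adjustment.

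Among the falling miRNAs, miR-145 is a smooth muscle and fibroblast miRNA made from the same precursor transcript as miR-143. Its normalized count was 3268 in CNLX1, 4785 in CNLX3, 4761 in CNLX5, 3757 in CNLX7 and 2899 in CNLX9. Among Montbéliarde cows it was 1600 in CNLX13, 4470 in CNLX15, 2629 in CNLX17, 2479 in CNLX19, 4111 in CNLX21 and 4096 in CNLX23. CNLX13 and CNLX9, the highest of their breeds in miR-186, were the lowest in miR-145. The slope was -1.84 (SE 0.41, adjusted p = 0.0345 from edgeR). The abundant miR-143 had a slope of -0.69 that did not pass (adjusted p = 0.327 from edgeR).

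MiR-424-5p, from a cluster with miR-503, miR-450 and miR-542, had the lowest Pearson's r with miR-186 among the well-counted miRNAs. Its normalized count was 119 in CNLX1, 138 in CNLX3, 150 in CNLX5, 122 in CNLX7 and 125 in CNLX9. In Montbéliarde it was 61.7 in CNLX13, 160 in CNLX15, 81.1 in CNLX17, 95.9 in CNLX19, 160 in CNLX21 and 115 in CNLX23. The Montbéliarde libraries thus stood in nearly the reverse order of miR-186. The slope was -1.81 (SE 0.38, adjusted p = 0.0302 from edgeR). The 6 other tested miRNAs of that cluster all had negative slopes, from -2.26 to -0.66, and 3 had a p of 0.05 or less before adjustment. Of these, miR-542-5p and miR-3601 had the same mean normalized count, 21.9, slope and SE, so they are not separate evidence.

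MiR-132, known from neurons, vessels and mammary stroma, had a normalized count of 96.6 to 202 in Holstein. In Montbéliarde it was 88.3 in CNLX13, 355 in CNLX15, 123 in CNLX17, 160 in CNLX19, 231 in CNLX21 and 194 in CNLX23. Its slope was -2.33 (SE 0.46, adjusted p = 0.0302 from edgeR). MiR-218, whose genes lie within SLIT2 and SLIT3, was highest in CNLX15 and CNLX21, at 871 and 579 normalized reads, against 216 to 381 in the other libraries, with a slope of -1.84 (SE 0.42, adjusted p = 0.0345 from edgeR). MiR-369-3p, of the imprinted DLK1-DIO3 region, had 147 to 205 normalized reads in Holstein against 102 to 279 in Montbéliarde, with a slope of -1.80 (SE 0.42, adjusted p = 0.0345 from edgeR). Of 13 other tested miRNAs from within 10 kb of its gene, 9 had a negative slope and 4 a positive one.

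Likeness of pattern was measured by Pearson's r of log2(normalized count + 1) centred by breed, over the 11 libraries. It was computed for 207 miRNAs that averaged at least 100 normalized reads. Of miRNAs with counts in a constant ratio, only the first listed was kept. The highest values were 0.91 for miR-17-3p, 0.89 for miR-32 and miR-200a, 0.87 for miR-29c and 0.83 for miR-30d and miR-429. The lowest were -0.96 for miR-424-5p, -0.90 for miR-369-3p, -0.87 for miR-132, -0.84 for miR-145, -0.81 for miR-136 and -0.80 for let-7i. In exact permutations of the libraries within breed, two-sided, 0 of the 207 passed with either sign (0% of those compared) after Benjamini-Hochberg adjustment, and 36 had a p of 0.05 or less before adjustment. By Spearman's rho, 6 passed. For miR-32, rho was 0.95 (exact permutation p = 0.000347, adjusted p = 0.0319) and r had an exact p of 0.00242 (adjusted p = 0.107). For miR-200a, rho was 0.92 (exact permutation p = 0.00037, adjusted p = 0.0319) and r had an exact p of 0.00258 (adjusted p = 0.107). Among the opposing miRNAs, rho passed for miR-132, at -0.92 (exact permutation p = 0.000995, adjusted p = 0.0470), and for miR-218, at -0.89 (exact permutation p = 0.00144, adjusted p = 0.0495). For miR-424-5p, rho was -0.88 (exact permutation p = 0.00352, adjusted p = 0.0641) and r had an exact p of 0.000602 (adjusted p = 0.107).

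Without CNLX15 and CNLX21, the libraries farthest from the median of miR-186, r was -0.92 for miR-424-5p, -0.93 for miR-132, -0.90 for miR-369-3p, 0.86 for miR-32 and miR-30d and 0.81 for miR-200a. It was 0.64 for miR-29c, -0.46 for miR-136 and -0.34 for let-7i. After centring by breed, the farthest libraries were CNLX13 and CNLX21. Without these, r was -0.93 for miR-424-5p, -0.94 for miR-132, -0.89 for miR-369-3p, 0.89 for miR-32, 0.86 for miR-200a and 0.72 for miR-30d and miR-29c. It was then -0.69 for miR-136 and -0.59 for let-7i, so that their values depended on which libraries were left out. Within the 6 Montbéliarde libraries alone, r was -0.97 for miR-424-5p (exact permutation p = 0.00556), 0.96 for miR-17-3p (exact p = 0.00417) and 0.91 for miR-32 (exact p = 0.0208), before any adjustment over the 207. No correlation was computed in the 5 Holstein libraries alone, since at least 6 were required.

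**Figure D3:**
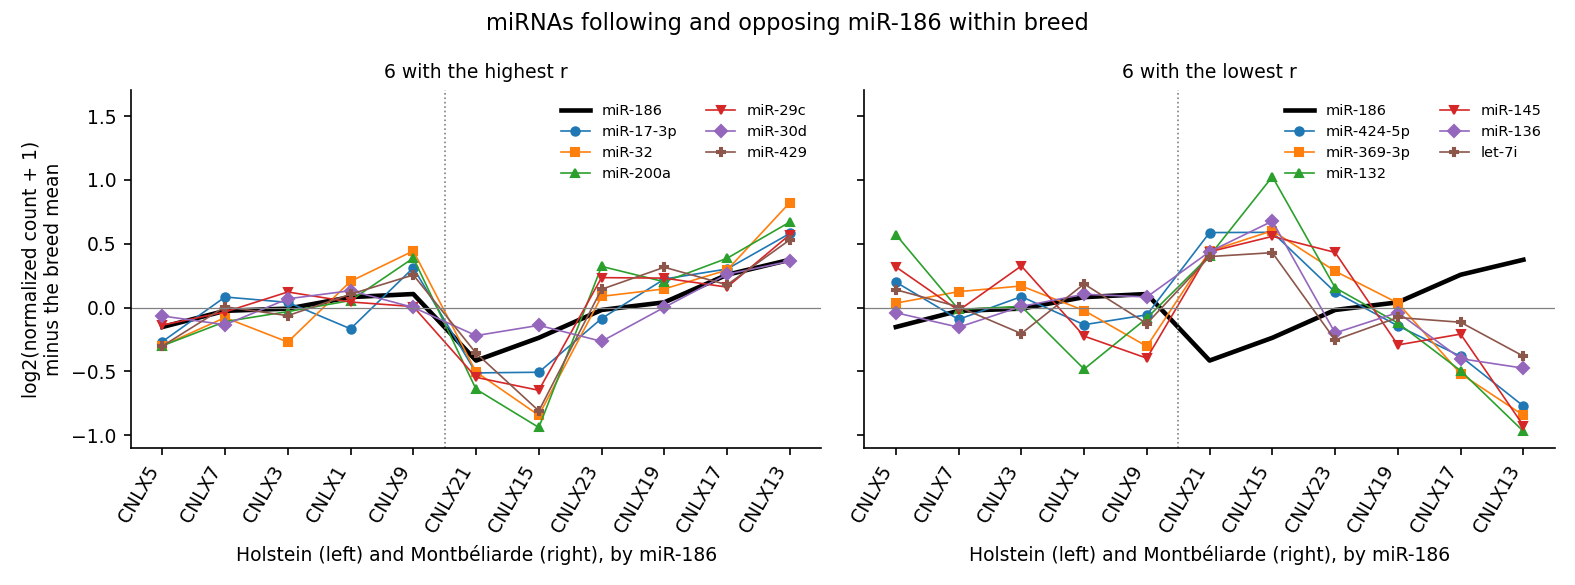
The log2(normalized count + 1) minus the breed mean of miR-186 (thick line) with the 6 miRNAs of the highest r (left) and the 6 of the lowest r (right). Libraries are ordered by miR-186 within Holstein and within Montbéliarde, with a dotted line between the breeds, and the r values run from 0.83 to 0.91 and from -0.96 to -0.80.

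MiR-17-3p, the highest in r, comes from the precursor of miR-17-5p in a cluster that promotes cell proliferation. Its normalized count was 177 to 265 in Holstein and 118 to 253 in Montbéliarde, with a slope of 1.35 (SE 0.40) that did not pass (adjusted p = 0.0679 from edgeR). The other arm, miR-17-5p, had a slope of -0.41, and miR-20a one of -0.22, while miR-92a had 0.37. Of the 6 other tested miRNAs of the cluster, none had a p of 0.05 or less before adjustment. MiR-29c, known to repress collagens, had between 5767 and 6905 normalized reads in Holstein and between 2868 and 6678 in Montbéliarde, and its slope of 1.27 (SE 0.37) did not pass (adjusted p = 0.0671 from edgeR). MiR-29b, whose gene MIR29B-2 lies next to that of miR-29c, had a slope of -0.00.

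By cell type, the epithelial list had a median slope of 1.24, against -0.11 for all 549 tested miRNAs. Over all 549, 6 rose (1.09%) and 5 fell (0.911%), while 257 slopes were positive and 292 negative. Of the 11 epithelial members, 2 rose, none fell, and 8 had a positive slope. The epithelial members with a negative slope were miR-205, which marks basal and myoepithelial cells, and miR-183 and miR-96, of the cluster that also holds miR-182. MiR-148a, abundant in milk and in secretory cells, had a slope of 1.52 (SE 0.55, adjusted p = 0.106 from edgeR). Of the 10 stromal members, 1 fell and all 10 had a negative slope, with a median of -1.45. All 6 leukocyte members had a negative slope as well, with a median of -1.41, and none passed. The endothelial miR-126-5p and miR-126-3p had slopes of 0.03 and 0.18. The 3 red blood cell members had positive slopes with a median of 1.81, and none passed.

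The same lists were followed in parts of the data. In the Holstein libraries alone, 8 of 11 epithelial slopes were positive (median 1.35), and 0 of 10 stromal slopes (median -2.11). Of all miRNAs tested there, 240 of 481 were positive (median -0.03). In Montbéliarde alone the epithelial and stromal medians were 1.25 and -1.29, against -0.05 for all tested. Without CNLX15 and CNLX21 the epithelial median was 0.66, with 7 of 11 positive, and the stromal median fell in size to -0.14, with 3 of 10 positive. The leukocyte median was then -0.12. Over all tested miRNAs the median in that fit was -0.18, with 244 of 530 positive, so neither the stromal nor the leukocyte median was lower. The red blood cell median was -0.03, with 1 of 3 positive. In fits of 1 breed alone no miRNA passed with edgeR, and 45 in Holstein and 77 in Montbéliarde had a p of 0.05 or less before adjustment.

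**Figure D4:**
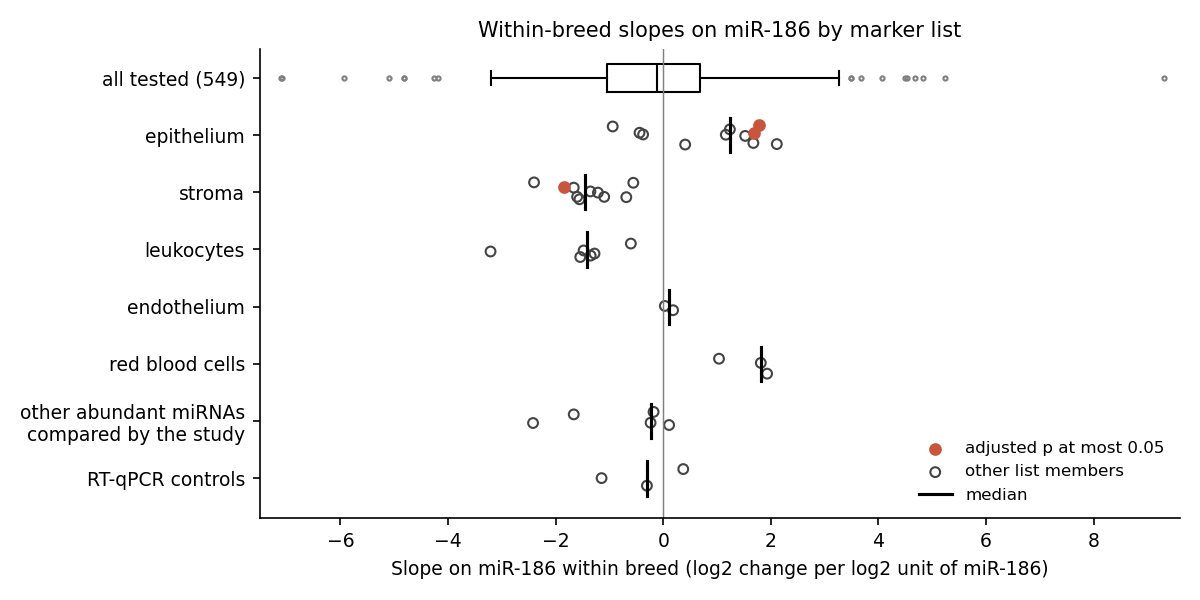
Slopes on miR-186 within breed (log2 change per log2 unit of miR-186) for all 549 tested miRNAs (box with median and quartiles, whiskers to 1.5 times the interquartile range) and for the members of each list (circles, with the median as a bar). Filled circles passed an adjusted p of 0.05. The epithelial median is 1.24, the stromal -1.45 and the leukocyte -1.41.

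With the log2 sum of the epithelial miRNAs as a further covariate, chosen after seeing the data, no miRNA had a slope that passed with edgeR, and 37 had a p of 0.05 or less before adjustment. Of the 5 falling miRNAs, miR-424-5p, miR-369-3p and miR-145 then had slopes of -1.84, -1.84 and -2.28, while those of miR-132 and miR-218 were -1.59 and -0.70. Of the 6 rising miRNAs, miR-200a, miR-32, miR-141 and miR-2411-5p had smaller slopes than before, at 0.33, 0.65, 1.21 and 1.59. MiR-12035 and miR-502b, with few reads, had 5.48 and 5.16. The epithelial median was -0.09 and the stromal median 0.07 in that fit, against -0.61 for all tested miRNAs. The epithelial miRNAs, with miR-200a and miR-141 among them, are themselves terms of the sum used as covariate. Nothing is therefore read from their own slopes or their median in that fit.

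MiR-186 also moved with the depth of the libraries. The deepest library of each breed, CNLX5 with 16808976 and CNLX21 with 11395785 counted reads, had the lowest normalized count of miR-186, and the shallowest, CNLX9 with 7431936 and CNLX13 with 6087865, had the highest. Centred by breed, r between the log2 values was -0.75 over the 11 libraries (exact permutation p = 0.00154, adjusted p = 0.00308) and rho was -0.86 (exact permutation p = 0.00132, adjusted p = 0.00264). Without the libraries farthest from the median depth, CNLX5 and CNLX13, r was -0.63. In the 6 Montbéliarde libraries r was -0.88 (exact permutation p = 0.0208, adjusted p = 0.0208, 2 tests). For the share of counted reads instead of the normalized count, r was -0.48 (exact permutation p = 0.120) and rho -0.40 (exact permutation p = 0.220). Relative to the RT-qPCR controls, r was -0.46 (exact permutation p = 0.126) and rho -0.59 (exact permutation p = 0.0410, not adjusted). Of the 207 well-counted miRNAs, 4 had a lower r with depth than miR-186, and the median was 0.08. With depth as a covariate no miRNA passed the slope test of edgeR, and 112 had a p of 0.05 or less before adjustment. The slopes of the falling miR-424-5p, miR-132, miR-218, miR-369-3p and miR-145 were then -2.03, -2.34, -2.03, -1.63 and -1.39. Those of the rising miR-200a, miR-141 and miR-32 were 1.95, 2.13 and 1.66, and those of miR-2411-5p, miR-12035 and miR-502b were 3.46, 3.41 and 5.03. The median slope was then 1.37 for the epithelial and -2.03 for the stromal list, against -0.02 for all tested. Holstein libraries were on average deeper than Montbéliarde libraries and higher in miR-186, which is the opposite direction to that within breed. The part of depth in the miRNAs that followed miR-186 was not tested further.

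**Figure D5:**
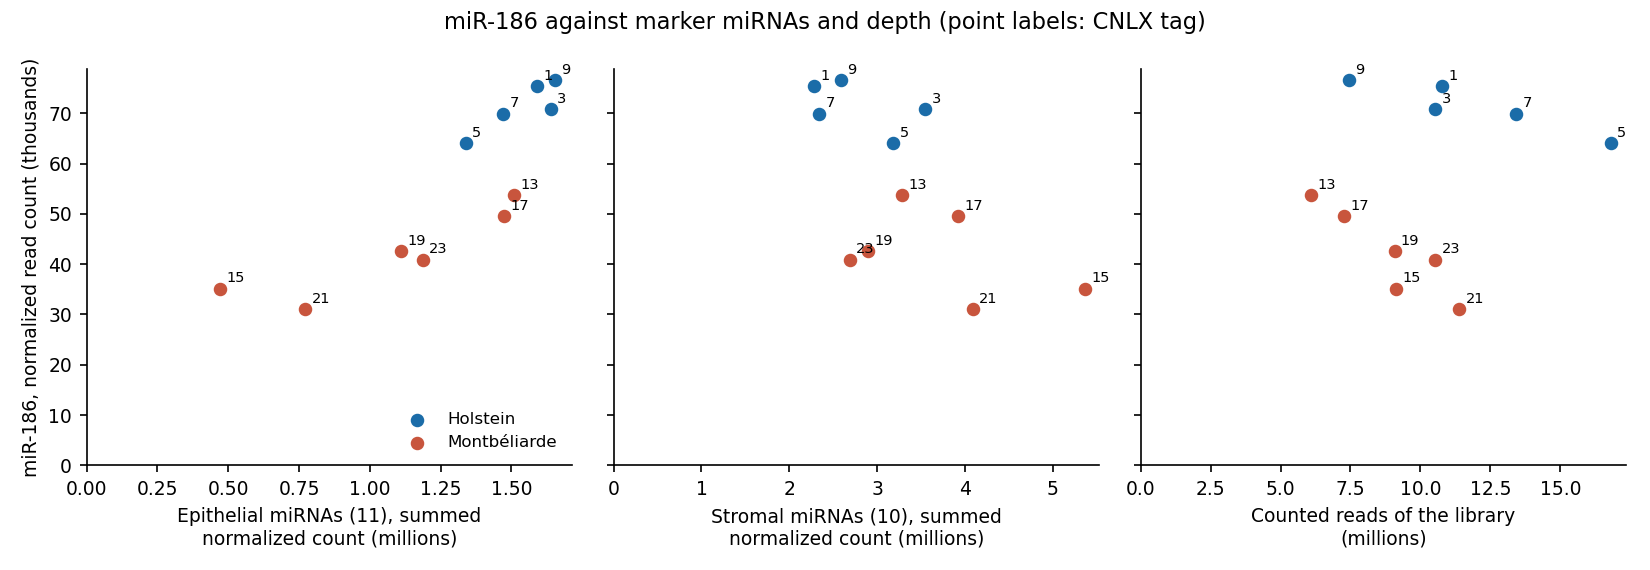
Normalized read count of miR-186 in units of 1000 reads against the summed normalized count of 11 epithelial miRNAs (left), of 10 stromal miRNAs (middle) and the counted reads of the library (right), all in units of 1000000 reads, with 1 point per library labelled by its CNLX number. CNLX15 and CNLX21 lie farthest left for the epithelial sum, at 0.472 and 0.772, and the deepest library, CNLX5, lies at 16.8.

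The study set 5 other abundant miRNAs beside miR-186. None of them passed the test of r within breed, which none of the 207 compared miRNAs passed. The values of r with miR-186 were -0.08 for miR-16a (exact permutation p = 0.838), 0.41 for miR-30e-5p (exact p = 0.368) and -0.27 for miR-25 (exact p = 0.470). They were -0.68 for miR-100 (exact p = 0.0744) and -0.55 for miR-146b (exact p = 0.166), all before adjustment over the 207. In the slope test of edgeR none passed either. The slope of miR-100 was -1.66 (SE 0.46, adjusted p = 0.0605 from edgeR), and it passed with DESeq2 (adjusted p = 0.0402). With edgeR it passed without CNLX23. The other slopes were -2.42 for miR-146b (SE 0.94), -0.23 for miR-25, -0.18 for miR-16a and 0.11 for miR-30e-5p. Like miR-186, miR-16a and miR-30e-5p were higher on average in Holstein, at 14054 ± 1743 and 39192 ± 2090 normalized reads (SD, n = 5), than in Montbéliarde, at 8193 ± 1320 and 30598 ± 3487 (SD, n = 6). These 5 miRNAs were chosen by the study on the same libraries. Their r depended on the libraries. Without CNLX15 and CNLX21 it was 0.32 for miR-16a, 0.12 for miR-25, 0.36 for miR-30e-5p, -0.14 for miR-100 and 0.05 for miR-146b. Without CNLX13 and CNLX21 it was 0.19 for miR-16a, -0.71 for miR-25, 0.68 for miR-30e-5p, -0.60 for miR-100 and -0.78 for miR-146b.

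Of the RT-qPCR controls, miR-26a had a slope on miR-186 of -1.15, miR-191 one of -0.30 and miR-92a one of 0.37, and none passed (adjusted p-values of 0.134, 0.736 and 0.516 from edgeR). When miR-186 was expressed relative to these controls, its slopes were tested again and 56 miRNAs rose and 67 fell, among them 8 of the 11 called with the normalized count. The epithelial median was then 1.10 and the stromal median -1.16, against 0.06 for all tested miRNAs. The controls enter this ratio, so a miRNA that moves with them can fall here whatever miR-186 does. Their own slopes were -1.03 for miR-26a (adjusted p = 0.000447 from edgeR), -0.55 for miR-191 and 0.32 for miR-92a. The larger numbers called are therefore not read as more miRNAs that follow or oppose miR-186. This fit was not repeated without CNLX15 and CNLX21. Their log2 ratios of miR-186 to the controls, -2.55 and -2.14, were the lowest of the 11 libraries, so the numbers called may rest on them.

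Whether any miRNA followed miR-186 differently in the breeds was tested by the product of breed and centred miR-186. None of the 549 miRNAs passed (0%) with edgeR's quasi-likelihood test, and 18 had a p of 0.05 or less before adjustment. DESeq2 and limma-trend called 0 as well. The Holstein cows spanned 0.26 on the log2 scale of miR-186 and the Montbéliarde cows 0.79, so slopes in Holstein were estimated over a narrow range.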

How the data were processed

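Adaptors and reads with ambiguous bases were removed by the authors, who retained lengths from 15 to 40 nt and counted miRNAs of miRBase and of miRDeep2 with a bovine assembly. They deposited raw read counts per miRNA and library. They also deposited a normalized signal, the counts divided by 1 size factor per library from DESeq2 1.18.1 per the submitters' processing notes. Recomputed factors gave the same values. The columns of the authors' own breed comparison were not used. Libraries were grouped by the breed in their labels. Slopes on miR-186 were fitted with edgeR 4.0.16 (TMM, glmQLFit, robust, glmQLFTest) in R 4.3.3, with breed as a term, on miRNAs with at least 10 counts in all, and adjusted by the Benjamini-Hochberg procedure. DESeq2 1.42.0, limma 3.58.1, other scalings, filters and covariates and each library left out were alternatives. The fit was tested on simulated data. Correlations used SciPy 1.17.1 and Python 3.11.15 with all 86400 permutations within breed, and plots used matplotlib 3.10.9. Depth was 6087865 to 16808976 counted reads. MiR-186 and the lists were chosen with earlier results of these data known. Named were the 6 highest and 6 lowest r, up to 8 called miRNAs per direction, rank neighbours, list members and the study's abundant and control miRNAs. Members of clusters were added after their values were seen.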

Additional observations from a re-analysis of the deposited data

Results flagged for a closer look

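Library CNLX15 stood apart from the other Montbéliarde libraries in miR-186 per 1000 normalized reads of epithelial miRNAs, with 74.4 against 33.6 to 40.2 in the other 5. Most of these epithelial reads were of miR-148a, and per 1000 reads of the other 10 epithelial miRNAs CNLX15 had 161, against 104 to 146. Library CNLX13 stood apart in miR-12035, at 21.7 normalized reads against 1.69 to 7.75 in the other Montbéliarde libraries, and in miR-502b, at 18.3 against 0.845 to 4.50. In raw counts these were 13 and 11 reads. They were found by Dixon's test for a single far value among 54 groups, of which 3 passed, and chance gives about 1 in 20.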

How the results depend on the processing

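The difference of miR-186 between the breeds kept its sign in every alternative run, and moved by more than the spread between cows only relative to epithelial miRNAs, to -0.18, or to -0.20 without miR-148a among them. The number of miRNAs called was not stable. Rising and falling miRNAs were 35 and 31 with the Wald test of DESeq2. They were 56 and 67 with miR-186 relative to the RT-qPCR controls, whose own levels enter that ratio. With DESeq2 size factors in edgeR 12 rose, and without a filter on low counts 2 fell. With counted reads or the epithelial miRNAs as a covariate, without CNLX15 and CNLX21, and in either breed alone, 0 rose and 0 fell. With each library left out in turn, 0 to 13 rose and 0 to 13 fell. The number of correlations past the exact permutation test was 6 with Spearman's rho, 31 for CPM, and 0 to 5 with each library left out, 5 of them without CNLX15 and 4 without CNLX21. The 11 called slopes kept their sign in all 239 alternative values and passed in 100 of them. Of the 8 other slopes followed, 4 values changed sign, namely miR-429 (-0.093), miR-200c (-0.40) and miR-148a (-1.06) with the epithelial miRNAs as a covariate, and miR-136 (0.71) in Holstein alone. MiR-429, miR-200c and miR-148a are themselves terms of that covariate, so nothing is read from their change of sign. The causes were not tested. No paired analysis was possible because each library came from a different cow and the labels give no pairs. With 11 libraries, precision is limited by the spread between cows for miR-186 and by counting error for miRNAs with few reads.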
